A study of Mus musculus with 16 samples.

Results

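The seminal vesicles (SVs) of αERKO mice given diethylstilbestrol (DES) as newborns were compared with the SVs of untreated WT mice, function by function, across all genes with a mean FPKM above 1 in either group. FPKM is a level scaled to transcript length and to the fragments mapped in the sample. The comparison used 8 of the 16 SV samples sequenced, 4 named αERKO-DES and 4 named WT-veh, and 14385 of the 31274 genes listed passed the minimum on FPKM. All mice were C57Bl/6 males at week 5. αERKO mice lack ERα (oestrogen receptor α, the product of Esr1) in every tissue and were bred from heterozygous parents. WT pups were born to pregnant females bought in, so the WT mice were not littermates of the αERKO mice. Each DES pup received daily injections of 2 µg under the skin from day 1 to day 5, in corn oil, and WT-veh pups received the oil alone. WT mice given DES (WT-DES, n = 4) and αERKO mice given corn oil (αERKO-veh, n = 4) are shown beside them. Genotype, source of the mice and treatment all differ between αERKO-DES and WT-veh and cannot be told apart within this comparison. The methods describe RNA from individual mice in 3 of the groups and from pools of mice in WT-DES. They give 3 pools where WT-DES has 4 samples, and how the pools correspond to the samples is not stated, so the WT-DES samples may not all be independent.

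The SV is an androgen-dependent gland whose epithelium secretes most of the fluid of the ejaculate, surrounded by a coat of smooth muscle. ERα is a hormone-activated transcription factor found in the stroma and epithelium of the male tract. DES is a synthetic oestrogen that binds ERα, and exposure of newborn male mice is known to alter the later growth and secretion of the SV. The question was how far tissue without ERα stayed like normal tissue after DES.

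Esr1 was the first check of the labels. It lies on chromosome 10 of GRCm38 from 4611593 to 5005614 on the plus strand. Its FPKM was 4.43, 4.55, 3.70 and 2.81 in WT-veh against 0.91, 1.15, 1.51 and 1.64 in αERKO-DES. The groups did not overlap, and Esr1 was 2.97-fold lower in αERKO-DES in mean FPKM, a log2 difference of -1.08 (standard error 0.19, limma adjusted p = 0.00577). WT-DES samples had 8.74, 19.6, 13.0 and 15.7 and αERKO-veh samples 1.30, 1.59, 1.75 and 1.43. Of 39 other genes tested within 10 Mb of Esr1, 1 was called (3.53% of all genes were), the guanine nucleotide exchange factor gene Plekhg1, which was higher (2.65 to 3.71 in WT-veh against 4.63 to 6.69 in αERKO-DES, adjusted p = 0.00407).

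Most genes lay close to normal tissue in αERKO-DES. A gene was called a DEG (differentially expressed gene) where limma's adjusted p did not exceed 0.05 and the group means of FPKM differed by 1.5-fold or more. There were 508 DEGs, 3.53% of the genes, with 193 higher (1.34%) and 315 lower (2.19%). At an unadjusted p of up to 0.05 the share was 28.8%, and the 4 and 4 samples did not overlap in 21.6% of genes (10.9% higher, 10.7% lower). By contrast, 10312 genes (71.7%) had a 95% confidence interval of the log2 difference wholly within 1.5-fold of WT-veh, and 3565 (24.8%) met neither criterion. Among DEGs, 10 higher and 52 lower reached a ratio of 4. With the same criteria, WT-DES had 8428 DEGs against WT-veh (53.3%, with 29.2% higher and 24.1% lower) and 30.0% of genes within 1.5-fold. αERKO-veh had 1139 DEGs (7.79%, with 4.92% higher and 2.87% lower) and 62.8% within 1.5-fold. These 3 comparisons share the WT-veh samples. The direct comparison of αERKO-DES with WT-DES gave 8537 DEGs (54.2%, with 24.1% higher and 30.1% lower in αERKO-DES). The split by direction moved with the scaling. Equal totals without the 20 genes of highest mean FPKM gave 2031 higher and 6589 lower, and quantile normalization 4259 higher and 3667 lower. The comparison of WT-DES with WT-veh was run with the deposited scaling alone. The count of 508 moved with the samples used, from 199 without αERKO-DES sample 3 to 883 without αERKO-DES sample 1, and was 217 without WT-veh sample 4. The share of DEGs that were higher, 38.0%, became 60.3% after quantile normalization and 52.3% after scaling to equal totals without the 20 genes of highest mean FPKM.

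The distance of each sample from WT-veh was taken as the median, over genes, of the absolute log2 difference from the WT-veh mean, with each WT-veh sample measured from the mean of the other 3. WT-veh samples lay at 0.0963, 0.118, 0.0855 and 0.144. αERKO-DES samples lay at 0.134, 0.160, 0.210 and 0.250, so that sample 1 was within the range of WT-veh and the others were above it. αERKO-veh samples lay at 0.172, 0.308, 0.230 and 0.222, and WT-DES samples at 0.542, 0.591, 0.564 and 0.535. The mean distance was 0.188 ± 0.0515 (SD, n = 4) in αERKO-DES and 0.233 ± 0.0563 (SD, n = 4) in αERKO-veh, a difference that did not exceed the spread (exact two-sided permutation p = 0.286 over 70 arrangements). αERKO-DES was closer to WT-veh than WT-DES was by 0.369, with no overlap (exact two-sided permutation p = 0.0286, the smallest that 4 against 4 samples allow), a value that takes the 4 WT-DES samples as independent.

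**Figure D1:**
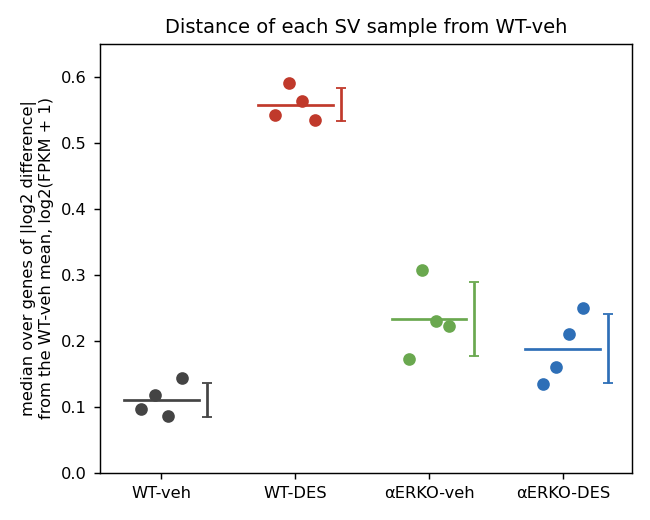
Distance of each of the 16 SV samples from WT-veh, as the median over genes of the absolute difference in log2(FPKM + 1), by group (points, samples; horizontal lines, group means; error bars, SD). The αERKO-DES samples, at 0.134 to 0.250, overlap αERKO-veh and lie far below WT-DES, at 0.535 to 0.591.

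Several facts of the libraries bear on what follows. The sum of FPKM was 590446 to 652708 in WT-veh against 531467 to 622477 in αERKO-DES, and 375207 to 437619 in WT-DES. Fragment counts are not part of these values, so depth is unknown. The log2 difference between αERKO-DES and WT-veh rose with transcript length across genes (Spearman's rho 0.43 over 13611 genes with a length, which share the 8 libraries). The median length was 4362 bases for the higher DEGs, 2131 for the lower DEGs and 3260 for all genes. After a correction of each sample for length, 425 genes were called, 187 higher and 238 lower. WT-veh sample 4 stood apart in markers of skeletal muscle, and WT-veh sample 2 in low markers of fat and of prostate secretion, as given below. In bulk tissue, fewer cells of a type and less RNA per cell cannot be told apart.

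Secretion is the main work of the SV epithelium. Of 12 SV secretion genes, 0 were called in αERKO-DES, and 0 passed an unadjusted limma p of 0.05. In WT-DES all 12 were lower than in WT-veh (24.1% of all genes were). Set against WT-DES, all 12 were higher in αERKO-DES (24.1% of all genes were). The median log2 difference over the list was -0.19 in αERKO-DES, 0.01 after quantile normalization or the correction for length, and -4.16 in WT-DES. Leaving out 1 sample at a time, the value in αERKO-DES went from -0.34 without αERKO-DES sample 3 to -0.05 without αERKO-DES sample 4, and was -0.13 without αERKO-DES sample 2. Svs4 encodes an abundant secreted protein of the SV and lies on chromosome 2 from 164275952 to 164278459 on the minus strand. Its FPKM was 10445, 10901, 10074 and 9914 in WT-veh against 8932, 6689, 10749 and 5374 in αERKO-DES. The groups overlapped (log2 difference -0.43, standard error 0.34, adjusted p = 0.454). The αERKO-DES samples spread more than WT-veh, with samples 2 and 4 low and sample 3 high. Svs2, a protein of the copulatory plug, showed the same order within αERKO-DES, at 8696, 6510, 10540 and 5543, against 9085, 10031, 8946 and 8196 in WT-veh. Svs5 went from 10084 to 11904 in WT-veh and from 5905 to 11846 in αERKO-DES (adjusted p = 0.489). The range of the 12 log2 differences was -0.43 to 0.28. None of the 12 intervals lay within 1.5-fold, and 4 did in a model of the 2 groups alone, so a difference of 1.5-fold is within reach of the error for most of these genes.

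The machinery that serves secretion held 2 calls. Of 40 genes for protein folding in the endoplasmic reticulum and for vesicle transport, 28 were within 1.5-fold (71.7% of all genes were), 2 rose (1.34% of all genes did) and 0 fell, and 14 passed an unadjusted p of 0.05 (28.8% of all genes did). Without overlap between the groups, 15 of the 40 were higher (10.9% of all genes were) and 1 was lower (10.7% of all genes were). In WT-DES 38 of the 40 were lower than in WT-veh (24.1% of all genes were), with a median log2 difference of -1.62, against 0.19 in αERKO-DES. Sel1l, a part of the pathway that clears misfolded proteins, had 41.9, 45.2, 36.6 and 36.0 in WT-veh against 52.6, 61.0, 68.9 and 74.9 in αERKO-DES (log2 difference 0.67, adjusted p = 0.0179). Sec24d, a coat protein of vesicles that leave the endoplasmic reticulum, had 50.5, 53.9, 47.6 and 43.2 in WT-veh against 63.3, 71.6, 85.0 and 90.6 in αERKO-DES (log2 difference 0.65, adjusted p = 0.00412). For both genes each αERKO-DES sample was above each WT-veh sample, and Sel1l lost the call without any of WT-veh samples 3 and 4 and αERKO-DES samples 3 and 4. P4hb, the protein disulphide isomerase of this compartment, ranged from 799 to 839 in WT-veh and from 753 to 992 in αERKO-DES, and its interval lay within 1.5-fold.

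The gland's epithelium and muscle coat gave no calls, where 3.53% of all genes were called. Of 16 epithelial genes, 12 were within 1.5-fold (71.7% of all genes were) and 0 were called. An unadjusted p of 0.05 was passed by 4 (28.8% of all genes did). WT-DES had 11 of the 16 lower (24.1% of all genes were). Krt18, a keratin of simple epithelia, was 485 to 558 in WT-veh against 483 to 666 in αERKO-DES. Krt19 was 420 to 484 in WT-veh against 349 to 512 in αERKO-DES. Of 11 genes of basal and squamous epithelium tested, 0 were called (1 at an unadjusted p of 0.05), and Krt5, a basal keratin, was 52.1 to 69.1 in WT-veh against 53.1 to 65.0 in αERKO-DES, where WT-DES had 8 of the 11 higher (29.2% of all genes were). Of 16 smooth muscle genes, 0 were called, and 0 at an unadjusted p of 0.05. Their mean level was 7.57, 7.82, 7.48 and 7.44 in WT-veh against 7.60, 7.58, 7.66 and 7.56 in αERKO-DES, in log2(FPKM + 1). In the model of all groups 0 of the 16 intervals were within 1.5-fold, and in the model of the 2 groups 13 were. WT-DES sample 1 stood at 8.22 and the other WT-DES samples at 6.02 to 6.64, and their part in this count was not tested. Tagln, an actin-binding protein of smooth muscle, was 1001 to 1186 in WT-veh against 755 to 1048 in αERKO-DES.

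**Figure D2:**
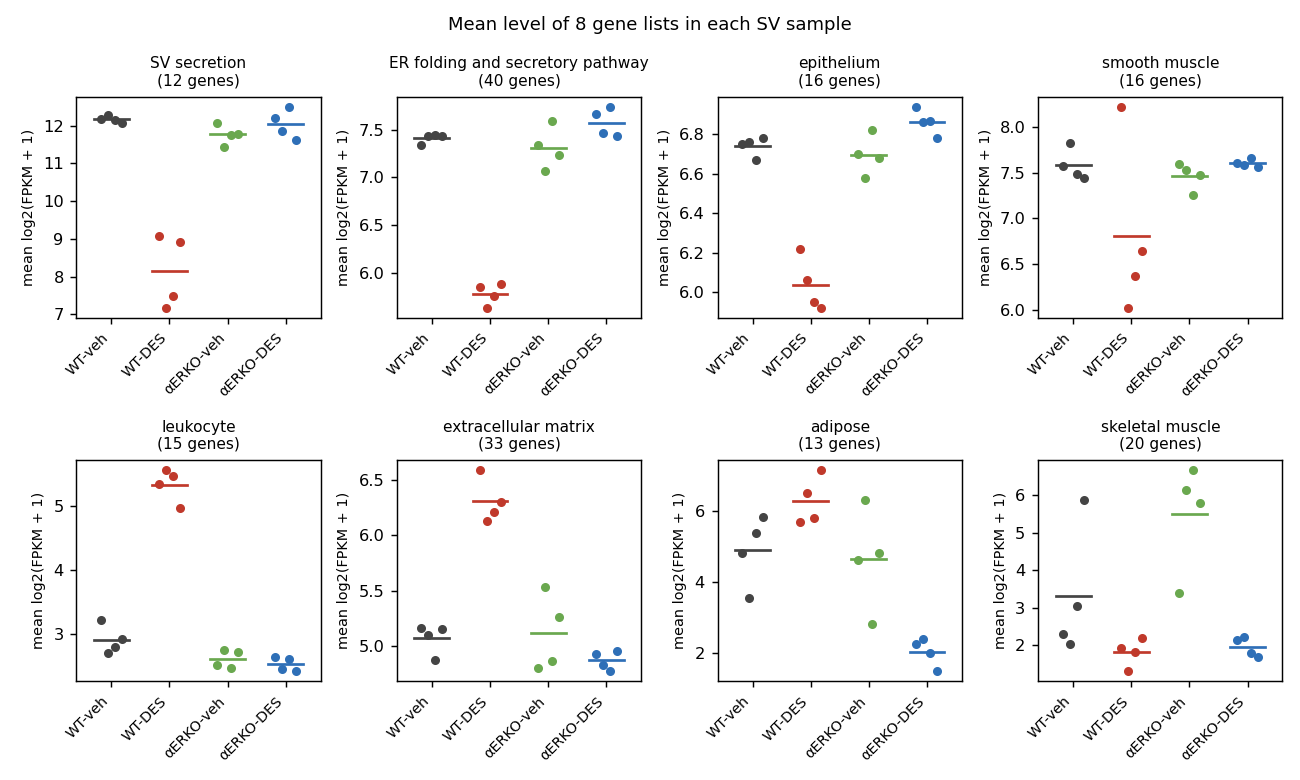
Mean level of 8 gene lists in each of the 16 samples, in log2(FPKM + 1), by group (points, samples; lines, group means). The αERKO-DES samples overlap or adjoin WT-veh for secretion, epithelium and smooth muscle, lie at 2.42 to 2.65 for leukocyte genes against 4.97 to 5.57 in WT-DES, and lie at 1.49 to 2.41 for adipose genes against 3.57 to 5.84 in WT-veh.

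The hormone-responsive genes were next. Of 20 androgen-responsive genes, 9 were within 1.5-fold (71.7% of all genes were) and 1 rose (1.34% of all genes did), Fkbp5, a co-chaperone of steroid receptors induced by androgens and glucocorticoids. Fkbp5 was 42.7, 37.4, 41.1 and 62.2 in WT-veh against 78.8, 78.3, 86.5 and 67.8 in αERKO-DES, with no overlap (log2 difference 0.77, adjusted p = 0.0111), and it was called lower in WT-DES (log2 difference -1.53) and higher in αERKO-veh (0.81). Pbsn, the androgen-induced probasin, was 2010 to 2179 in WT-veh against 1547 to 2186 in αERKO-DES. In WT-DES 12 of the 20 were lower and 5 higher, where 24.1% of all genes were lower and 29.2% higher, so the count of higher genes was near that of all genes.

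Of 11 oestrogen-induced genes, 8 had enough expression to be tested, and in αERKO-DES 0 were called while 4 passed an unadjusted p of 0.05. Ltf, the gene for lactoferrin and a classical oestrogen target of the uterus, lies on chromosome 9 from 111019271 to 111042767 on the plus strand. Its FPKM was 7.90, 5.68, 9.99 and 10.5 in WT-veh against 8.60, 5.92, 1.76 and 3.08 in αERKO-DES, where samples 3 and 4 were low (log2 difference -0.83, standard error 0.38, adjusted p = 0.176). WT-DES had 167, 185, 221 and 193, and the log2 difference of αERKO-DES from WT-DES was -5.20 (adjusted p = 1.28e-08). Ccnd1, the gene for cyclin D1, was 158 to 186 in WT-veh against 220 to 263 in αERKO-DES, with no overlap (adjusted p = 0.0254), a rise below the 1.5-fold criterion. C3, a complement component induced by oestrogen in the uterus, was 24.7, 11.5, 15.0 and 18.5 in WT-veh against 10.8, 7.50, 8.17 and 7.01 in αERKO-DES (adjusted p = 0.0731), and 194 to 242 in WT-DES. In the model of the 2 groups, and with sample weights, C3 was called lower in αERKO-DES. Pgr, the progesterone receptor, was at 0.44 to 1.00 in WT-veh against 0.31 to 0.50 in αERKO-DES, below the minimum on FPKM, and at 6.40 to 13.3 in WT-DES. Of 15 steroid receptors and enzymes tested, Esr1 itself was the 1 called (6.67%, beside 3.53% of all genes) and 8 were within 1.5-fold (53.3%, beside 71.7%). In the model of the 2 groups Hsd11b1 and Hsd11b2 were also called lower and Srd5a2 higher.

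Fat genes made the largest departure of any list tested, measured by the median. Of 13 adipose genes, 9 were lower in αERKO-DES and 0 higher (69.2%, beside 3.53% of all genes), with a median log2 difference of -2.84 against -0.01 over all genes. Adipoq, the fat hormone adiponectin, lies on chromosome 16 from 23146536 to 23158028 on the plus strand. Its FPKM was 34.2, 10.2, 36.2 and 58.6 in WT-veh against 1.19, 1.64, 1.09 and 0.35 in αERKO-DES. Every αERKO-DES sample was below every WT-veh sample, and the mean was 32.6-fold lower (log2 difference -3.93, standard error 0.73, adjusted p = 0.00678). Fabp4, the fatty acid carrier of adipocytes, had 256, 95.8, 373 and 494 in WT-veh against 33.4, 36.1, 23.0 and 14.8 in αERKO-DES, a mean 11.3-fold lower (log2 difference -3.30, adjusted p = 0.00469).

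Cfd, the complement factor adipsin that fat secretes, had 303, 93.8, 275 and 432 in WT-veh against 15.3, 20.2, 9.30 and 1.61 in αERKO-DES (log2 difference -4.62, standard error 0.76, adjusted p = 0.00375). Car3, a carbonic anhydrase of fat and muscle, had 124, 37.3, 103 and 201 in WT-veh against 4.71, 9.17, 4.32 and 1.03 in αERKO-DES (log2 difference -4.32, adjusted p = 0.00106). Retn, the hormone resistin, ranged from 15.3 to 71.8 in WT-veh and was lower, at 0.23 to 1.53, in αERKO-DES (adjusted p = 0.00326). In each of these genes WT-veh sample 2 was the lowest of its group and αERKO-DES sample 4 the lowest of all 8. Plin1 and Cidec, proteins of the lipid droplet, Lpl, the lipase that frees fatty acids from lipoproteins, and Pck1, an enzyme of glyceride synthesis in fat, made up the other 4 calls, with adjusted p from 0.0154 to 0.0308.

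The mean adipose level was 4.83, 3.57, 5.38 and 5.84 in WT-veh, 2.26, 2.41, 2.00 and 1.49 in αERKO-DES, 5.71, 6.50, 5.80 and 7.16 in WT-DES and 4.62, 6.32, 2.82 and 4.81 in αERKO-veh. The 4 αERKO-DES samples were the lowest of the 16, and αERKO-veh sample 3 was the next. Relative to WT-DES, all 13 genes were lower in αERKO-DES (30.1% of all genes were). Set against αERKO-veh, 7 of 13 were lower (1.55% of all genes were). The count of 9 became 5 without WT-veh sample 4, without αERKO-DES sample 3 or without αERKO-DES sample 4. Whether the amount of attached fat set these levels was not tested.

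**Figure D3:**
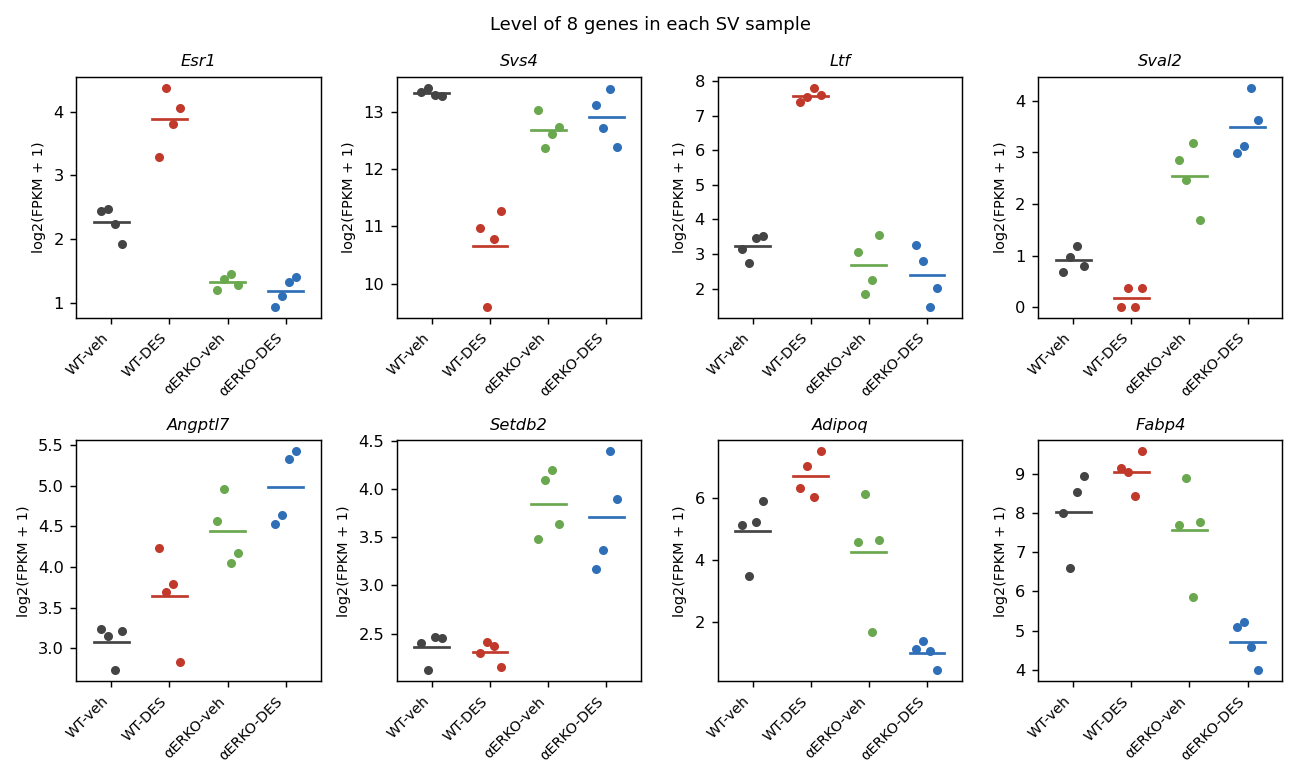
Level of 8 genes in each of the 16 samples, in log2(FPKM + 1), by group (points, samples; lines, group means). Esr1 is low in both αERKO groups, Svs4 overlaps between WT-veh and αERKO-DES, Ltf is high in WT-DES alone, Sval2, Angptl7 and Setdb2 are higher in both αERKO groups than in WT-veh, and Adipoq and Fabp4 are low in αERKO-DES.

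Other markers of tissue around the gland varied between samples within WT-veh. The mean level of 20 skeletal muscle genes was 2.30, 2.03, 3.05 and 5.86 in WT-veh against 2.14, 2.21, 1.78 and 1.68 in αERKO-DES, with 0 genes called (4 at an unadjusted p of 0.05). Ckm, the creatine kinase of muscle, was 32.8, 32.7, 47.2 and 273 in WT-veh against 19.6 to 36.4 in αERKO-DES. The high value was that of WT-veh sample 4. αERKO-veh stood at 3.39 to 6.67. Of 8 sperm and testis genes, 0 passed the minimum on FPKM.

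Secretory genes of the prostate and the coagulating gland were of 2 kinds. Pbsn and Tgm4, the latter a transglutaminase of the anterior prostate, overlapped between the groups, with Tgm4 at 1453 to 1856 in WT-veh against 1635 to 2014 in αERKO-DES. Sbp, a spermine-binding protein of the ventral prostate, was 58.8, 2.59, 2057 and 4368 in WT-veh against 4.33 to 6.90 in αERKO-DES (adjusted p = 0.07), so WT-veh sample 2 was as low as αERKO-DES. Msmb, a microseminoprotein of prostatic fluid, was 689, 94.8, 1082 and 1586 in WT-veh against 93.8, 249, 46.6 and 29.1 in αERKO-DES (adjusted p = 0.0504). Defb50, a defensin, was the 1 of 7 prostate genes called (14.3%, beside 3.53% of all genes), at 1104, 642, 1445 and 1946 in WT-veh against 451, 628, 242 and 278 in αERKO-DES (log2 difference -1.67, adjusted p = 0.0161), and it lost the call without any of WT-veh sample 3, WT-veh sample 4, αERKO-DES sample 3 and αERKO-DES sample 4. Without WT-veh sample 2, or with sample weights, 4 of the 7 were called, with Msmb, Sbp and Sbpl added.

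Crisp1, a secreted protein of the epididymis, was 398, 316, 490 and 519 in WT-veh against 288, 146, 5.11 and 3.99 in αERKO-DES (adjusted p = 0.0839). Akr1b7, an aldose reductase-like protein known from the vas deferens, was 529, 530, 695 and 845 in WT-veh against 555, 264, 14.9 and 9.06 in αERKO-DES (adjusted p = 0.117). In αERKO-DES sample 1 Akr1b7 was within the WT-veh range and Crisp1 just below it, sample 2 was below the range for both genes, and samples 3 and 4 were far below it. Both varied in αERKO-veh as well, from 19.6 to 429 for Crisp1 and from 24.4 to 753 for Akr1b7. How much prostate, epididymis or duct came with each SV was not tested.

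Immune genes did not show the rise seen in WT-DES. Of 15 leukocyte genes, 0 were higher and 2 lower in αERKO-DES (13.3%, beside 3.53% of all genes). WT-DES had all 15 higher (29.2% of all genes were). The direct test found all 15 lower in αERKO-DES than in WT-DES (30.1% of all genes were). Lyz2, the lysozyme of macrophages, was 106, 58.6, 76.2 and 94.9 in WT-veh against 42.0, 29.1, 45.6 and 26.4 in αERKO-DES (log2 difference -1.21, adjusted p = 0.00678). Tyrobp, an adaptor of myeloid receptors, was 32.6 to 47.0 in WT-veh against 21.8 to 30.7 in αERKO-DES (log2 difference -0.63, adjusted p = 0.0216). Neither gene overlapped between the groups. Tyrobp lost the call with the correction for length and without any of WT-veh samples 1 and 4 and αERKO-DES samples 2 and 4, which left Lyz2, and 4 genes were called in the model of the 2 groups. Of 7 MHC class II genes 0 were called (2 at an unadjusted p of 0.05), with a median log2 difference of -0.39 against 2.18 in WT-DES. The median in αERKO-DES was -0.255 without WT-veh sample 1 and -0.521 without αERKO-DES sample 1. In the model of the 2 groups, and with sample weights, H2-DMa and H2-DMb1 were called lower. Cd74, the chain that chaperones these molecules, was 153 to 269 in WT-veh against 118 to 196 in αERKO-DES. Of 20 interferon-stimulated genes 0 were called, none at an unadjusted p of 0.05 either (0 of 20), with a median log2 difference of 0.00 in αERKO-DES and 1.13 in WT-DES.

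Of 19 chemokines, 3 fell (15.8%, beside 3.53% of all genes), Ccl6, Ccl8 and Ccl11, which attract monocytes, lymphocytes or eosinophils. Without WT-veh sample 4 only Ccl8 was called, and 2 of the 3 were called without WT-veh sample 3, αERKO-DES sample 3 or αERKO-DES sample 4, after quantile normalization and with the correction for length, while 5 chemokines were called in the model of the 2 groups. Ccl8 was 12.1, 4.82, 8.80 and 12.3 in WT-veh against 2.22, 0.29, 1.83 and 1.24 in αERKO-DES (log2 difference -2.14, adjusted p = 0.00366), and its log2 difference in WT-DES was 3.56. Ccl11, eotaxin, was 43.6 to 48.9 in WT-veh against 16.1 to 30.5 in αERKO-DES (adjusted p = 0.0214), and it was lower in WT-DES too, by a log2 difference of -0.79. Of 15 complement genes, Cfd (above) and C4b fell (13.3%, beside 2.19% of all genes), and 12 were higher in WT-DES, where 29.2% of all genes were. C4b was 5.30 to 13.8 in WT-veh against 2.56 to 3.73 in αERKO-DES (adjusted p = 0.0238), and its call was lost without any of WT-veh samples 1 and 4 and αERKO-DES samples 3 and 4. Without WT-veh sample 2 or αERKO-DES sample 1, 5 complement genes were called lower. Of 10 genes of mucosal defence, 3 fell (30.0%, beside 3.53% of all genes), Lyz2, Wfdc3 and Pigr, the receptor that carries IgA across epithelium. Pigr was 8.08, 10.01, 9.31 and 33.4 in WT-veh against 3.74, 4.91, 1.46 and 6.32 in αERKO-DES (adjusted p = 0.0381). Pigr lost the call without any of WT-veh samples 3 and 4 and αERKO-DES samples 2, 3 and 4, after quantile normalization, with no minimum on FPKM and in the model of the 2 groups. Globin genes were called as well, and 3 of 4 red blood cell genes tested were lower (2.19% of all genes were), Hba-a2 among them, at 214 to 397 in WT-veh against 83.1 to 166 in αERKO-DES (adjusted p = 0.0309). These 3 calls were lost with the correction for length, after quantile normalization, with a replicate block, and without any 1 of 6 of the samples. The part of blood in the values of the immune genes was not tested.

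In the connective tissue, 6 of 33 extracellular matrix genes were lower in αERKO-DES and 0 higher (18.2%, beside 2.19% of all genes lower), with 10 within 1.5-fold (30.3%, beside 71.7%) and a median log2 difference of -0.18, or -0.31 with the correction for length and -0.27 without WT-veh sample 3. WT-DES went the other way, with 23 of the 33 higher (29.2% of all genes were). Dcn, a small proteoglycan that binds collagen, was 281, 230, 257 and 251 in WT-veh against 178, 164, 161 and 145 in αERKO-DES (log2 difference -0.65, standard error 0.11, adjusted p = 0.00449). Lum, a related proteoglycan, was 28.8 to 33.3 in WT-veh against 9.62 to 18.0 in αERKO-DES (log2 difference -1.26, adjusted p = 0.00469). Col3a1, a fibrillar collagen, was 202 to 248 in WT-veh against 125.6 to 149 in αERKO-DES (log2 difference -0.72, adjusted p = 0.0187). None of these 3 overlapped. The other calls were Col14a1, the microfibril gene Mfap5 and the fibulin gene Fbln1, with adjusted p from 0.007 to 0.049. The number of calls was 6 with the correction for length, 2 after quantile normalization and 3 (Dcn, Lum and Mfap5) without WT-veh sample 1, WT-veh sample 4 or αERKO-DES sample 3. Col14a1 and Fbln1 lost their calls without any 1 of 7 of the 8 samples, the exception being αERKO-DES sample 1, and with a replicate block, equal totals, no variance trend or no minimum on FPKM, each of which left 4 calls.

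Of 12 fibroblast genes, 2 fell (16.7%, beside 2.19% of all genes) and 5 were within 1.5-fold (41.7%, beside 71.7%). Dpt, the matrix protein dermatopontin, had a narrow range in both groups, 83.9 to 97.5 in WT-veh against 45.4 to 51.3 in αERKO-DES (log2 difference -0.89, standard error 0.12, adjusted p = 0.00126). Thy1, a surface protein of fibroblasts, was 68.4 to 82.6 in WT-veh against 40.4 to 56.6 in αERKO-DES (adjusted p = 0.00995), and it lost the call after quantile normalization, with equal totals, and without WT-veh sample 2 or αERKO-DES sample 3. The adipose level, given above, was lower in the same samples. Of 8 Schwann cell genes, 7 were lower without overlap (10.7% of all genes were) and 7 passed an unadjusted p of 0.05 (28.8% of all genes did), with a median log2 difference of -0.69. The 1 called was Mbp, a myelin protein, at 18.4 to 26.7 in WT-veh against 11.1 to 14.4 in αERKO-DES (adjusted p = 0.0318). The Mbp call was lost without any 1 WT-veh sample, without αERKO-DES sample 3 or 4, after quantile normalization and with equal totals, whereas 6 Schwann cell genes were called in the model of the 2 groups. Of 14 endothelial genes 1 was called lower (7.14%, beside 3.53% of all genes), the junction gene Cldn5, whose groups overlapped. Its call was lost with no minimum on FPKM, with a replicate block, after quantile normalization, with equal totals, with the correction for length and without any 1 of 6 of the 8 samples. The part of nerve, vessel or fat in the matrix values was not tested.

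**Figure D4:**
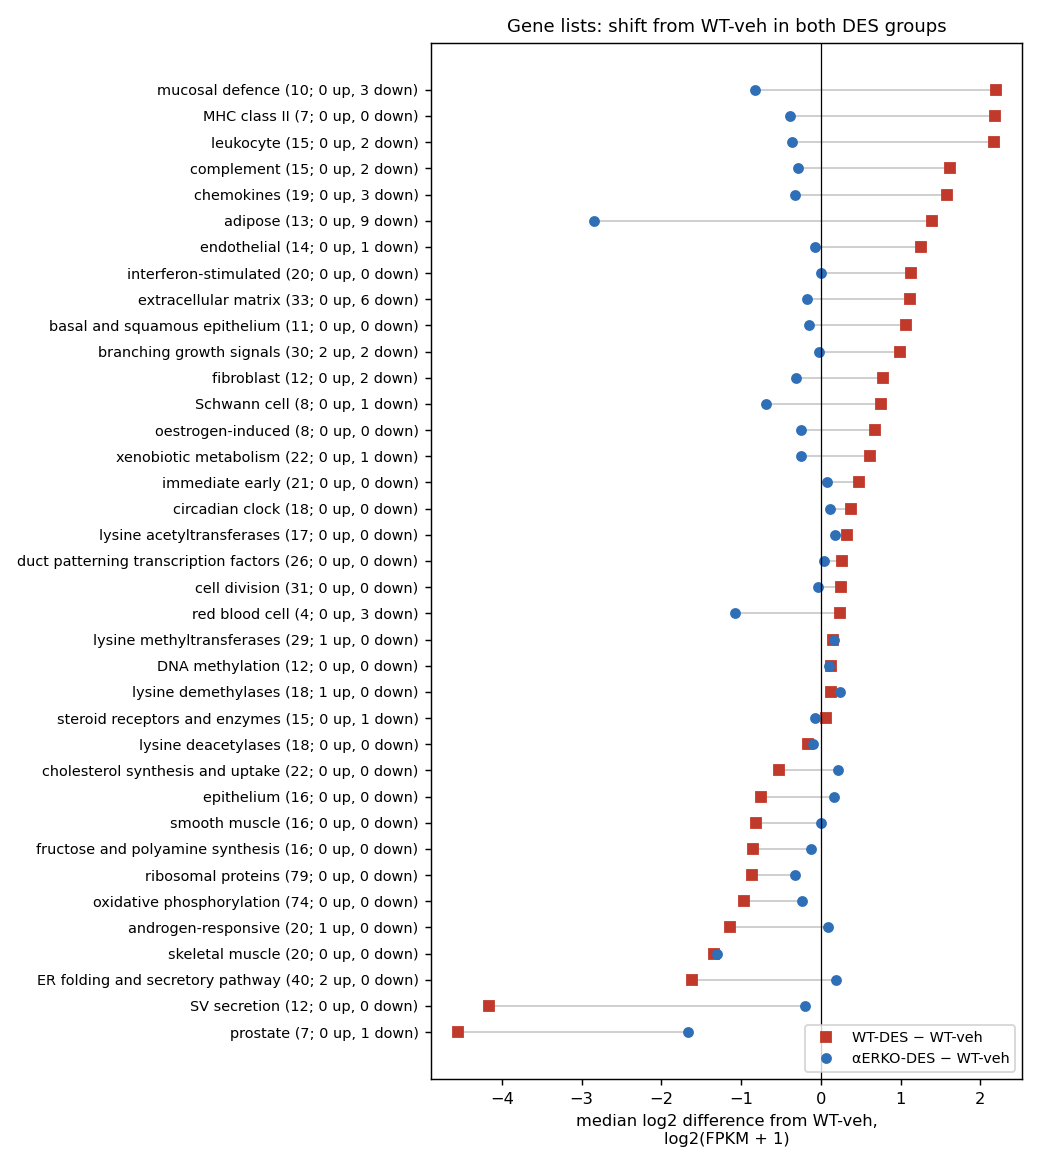
Median log2 difference from WT-veh over each gene list with at least 4 genes tested, in αERKO-DES (circles) and WT-DES (squares), with the number of genes tested and the number called higher (up) and lower (down) in αERKO-DES. Both comparisons use the same WT-veh samples. SV secretion lies at -0.19 and -4.16, leukocyte genes at -0.36 and 2.17, and adipose genes at -2.84 and 1.39.

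Of 30 signals that shape the branching gland, 4 were called (13.3%, beside 3.53% of all genes) and 16 were within 1.5-fold (53.3%, beside 71.7%). Egf, the growth factor that the male tract secretes, was 38.1, 31.8, 25.4 and 28.8 in WT-veh against 54.1, 66.1, 56.7 and 81.1 in αERKO-DES (log2 difference 1.03, adjusted p = 0.0127). Igf1r, the receptor for insulin-like growth factors, was 10.6 to 14.8 in WT-veh against 19.2 to 23.5 in αERKO-DES (log2 difference 0.71, adjusted p = 0.00186). Gli1, a target of hedgehog signals in the stroma, was 10.1 to 13.2 in WT-veh against 5.54 to 8.85 in αERKO-DES (log2 difference -0.65, adjusted p = 0.0198). Dkk2, a secreted modulator of Wnt signals, was 5.16 to 7.67 in WT-veh against 2.71 to 4.82 in αERKO-DES (log2 difference -0.68, adjusted p = 0.0352). Gli1 and Dkk2 lost their calls without αERKO-DES sample 3 and with equal totals, and without αERKO-DES sample 4 only Igf1r was called. Dkk2 lost its call also without any of WT-veh samples 1, 2 and 3, after quantile normalization and with no minimum on FPKM. In WT-DES 20 of the 30 were higher (29.2% of all genes were) and 1, Egf, was lower, with a log2 difference of -3.30. Of 26 duct patterning transcription factors, 17 were within 1.5-fold, 0 were called and 4 passed an unadjusted p of 0.05. Gata2, a factor that works with the androgen receptor, was 268 to 415 in WT-veh against 344 to 374 in αERKO-DES, with a log2 difference of -2.30 in WT-DES.

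Among the chromatin genes, 2 were called, both higher, where 3.53% of all genes were called. Of 18 lysine deacetylases 17 were within 1.5-fold, and of 12 genes of DNA methylation 11 were, with 4 and 2 at an unadjusted p of 0.05 and 0 called. The counts were 23 of 29 for lysine methyltransferases, 14 of 18 for lysine demethylases and 12 of 17 for lysine acetyltransferases, beside 71.7% of all genes. The acetyltransferases had 0 calls and 8 genes at an unadjusted p of 0.05. Setdb2, which carries the domain of histone H3 lysine 9 methyltransferases, rose and lies on chromosome 14 from 59402009 to 59440884 on the minus strand. Its FPKM was 4.27, 3.34, 4.53 and 4.50 in WT-veh against 8.01, 9.32, 19.9 and 13.8 in αERKO-DES (log2 difference 1.34, standard error 0.22, adjusted p = 0.00391). WT-DES samples, at 3.45 to 4.33, were at the WT-veh level, and αERKO-veh samples were at 10.1 to 17.3. Setdb2 kept its call in all 20 alternatives run. Phf8, a demethylase of histone H3 lysine 9, was 10.2 to 12.3 in WT-veh against 16.2 to 18.0 in αERKO-DES (log2 difference 0.56, adjusted p = 0.00144), with a ratio of mean FPKM of 1.52. It lost the call after quantile normalization, with the fold taken from log2(FPKM + 1), and without any of WT-veh samples 3 and 4 and αERKO-DES sample 4. Without WT-veh sample 2 or αERKO-DES sample 1 the demethylases called were 3, with Kdm5a and Kdm6a added.

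No gene of the metabolic, ribosomal, cell division or clock lists described next was called, apart from 1 gene of xenobiotic metabolism. Of 74 genes of oxidative phosphorylation, 62 were within 1.5-fold (71.7% of all genes were) and 0 called, with 31 at an unadjusted p of 0.05 and a median log2 difference of -0.24, or -0.03 with the correction for length, against -0.97 in WT-DES. Of 79 ribosomal protein genes, 39 were within 1.5-fold and 0 called, although 59 passed an unadjusted p of 0.05 (28.8% of all genes did). Their median log2 difference was -0.32, or -0.13 with the correction for length, with a mean level of 6.43, 6.24, 6.42 and 6.41 in WT-veh against 6.29, 6.04, 6.06 and 5.84 in αERKO-DES. In αERKO-veh the median was -0.60, with 43 of 79 called lower (2.87% of all genes were). Of 31 cell division genes 18 were within 1.5-fold, of 21 immediate early genes 13 were and of 18 circadian clock genes 12 were, with 0 called in each list and 0, 4 and 4 at an unadjusted p of 0.05. Of 22 genes of cholesterol synthesis and uptake 6 were within 1.5-fold and of 16 genes of fructose and polyamine synthesis 13 were, again with 0 called and with 3 and 9 at an unadjusted p of 0.05. Sord, the enzyme that makes the fructose of seminal fluid, was 146 to 206 in WT-veh against 150 to 177 in αERKO-DES, with a log2 difference of -2.17 in WT-DES. Of 22 genes of xenobiotic metabolism 1 was called (4.55%, near the 3.53% of all genes), Cyp2e1 (below), which lost the call without any of WT-veh samples 3 and 4 and αERKO-DES samples 3 and 4, and Gstm2, a glutathione transferase, was 241 to 261 in WT-veh against 248 to 348 in αERKO-DES.

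Among DEGs that reached a mean FPKM of 5 in either group and did not overlap between the groups, the largest rises were for the most part of low or moderate level. Sval2, a relative of the SV autoantigen, lies on chromosome 6 from 41852989 to 41864413 on the plus strand. Its FPKM was 0.61, 0.96, 1.27 and 0.74 in WT-veh against 6.94, 7.67, 17.9 and 11.4 in αERKO-DES, 12.3-fold higher in the mean (log2 difference 2.59, standard error 0.30, adjusted p = 0.000475). αERKO-veh stood between, at 2.23 to 8.05, and WT-DES at 0.00 to 0.30. Angptl7, a secreted angiopoietin-like protein, was 8.44, 7.88, 5.63 and 8.28 in WT-veh against 22.0, 24.0, 39.4 and 41.9 in αERKO-DES (log2 difference 1.90, adjusted p = 0.00235). Atp13a4, a cation-transporting ATPase, was 1.03 to 1.45 in WT-veh against 5.69 to 8.79 in αERKO-DES (log2 difference 1.85, adjusted p = 5.65e-05).

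Fam19a5, a small secreted protein, had the smallest standard error of the 12 largest rises, at 6.94, 6.51, 5.51 and 7.78 in WT-veh against 19.0, 19.2, 19.6 and 19.7 in αERKO-DES (log2 difference 1.42, standard error 0.11, adjusted p = 1.9e-05). Doxl2, a diamine oxidase-like enzyme, was 9.70 to 10.9 in WT-veh, 25.1 to 44.1 in αERKO-DES and 0.03 to 0.34 in WT-DES. Slc1a1, a glutamate transporter, was 4.32 to 4.99 in WT-veh against 11.1 to 17.6 in αERKO-DES. The others of the 12 largest rises were Gm2115, Rarres1, Dlgap1, Ptgds, Setdb2 and Chad, with log2 differences from 1.27 to 1.90. Ptgds, a prostaglandin D synthase, lost its call in 8 of 20 alternatives (adjusted p up to 0.0837). In αERKO-veh the log2 differences from WT-veh were 1.64 for Sval2, 1.36 for Angptl7, 1.33 for Atp13a4 and 1.05 for Fam19a5, each called, with the same WT-veh samples used.

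Among DEGs that reached a mean FPKM of 5 in either group without overlap, the largest falls were led by Wfdc3, a protease inhibitor-like protein, on chromosome 2 from 164731180 to 164745931 on the minus strand. Its FPKM was 55.8, 2.19, 106 and 226 in WT-veh against 0.60, 0.84, 0.10 and 0.52 in αERKO-DES (log2 difference -4.94, standard error 0.93, adjusted p = 0.00739). The order of the WT-veh samples, with sample 2 lowest and sample 4 highest, was that of Sbp and of the adipose level. Cyp2e1, a cytochrome P450 of liver and fat, was 21.9, 7.52, 21.2 and 42.0 in WT-veh against 0.38 to 3.62 in αERKO-DES (adjusted p = 0.0209). Thrsp, a regulator of fat synthesis, was 8.41 to 82.8 in WT-veh against 1.98 to 6.00 in αERKO-DES, and it lost its call in 9 of 20 alternatives (adjusted p up to 0.11). Cox8b, a cytochrome oxidase subunit of muscle and brown fat, was 10.5, 2.43, 75.4 and 104 in WT-veh against 0.52 to 1.89 in αERKO-DES, and lost its call in 7 of 20. Hp, haptoglobin, which lost its call in 5 of 20, was 10.4 to 76.9 in WT-veh against 0.40 to 2.88 in αERKO-DES, and Retnla, a secreted resistin-like protein, was 39.8 to 93.6 in WT-veh against 1.70 to 17.7 in αERKO-DES. The others of the 12 were Cfd, Car3, Retn, Adipoq, Cidec and Fabp4. In αERKO-veh none of the 12 was called, and the log2 differences ranged from -1.38 for Retnla to 1.20 for Cox8b.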

How the data were processed

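RNA of 16 SV samples was sequenced, 4 in each of 4 groups taken from the sample titles. Reads were paired, of 126 nt, from an Illumina HiSeq system, and those with an average quality above 20 were kept. Per the submitters' processing notes, alignment to mm10 (GRCm38) used TopHat2 2.0.4, and the authors deposited FPKM per gene from Cufflinks 2.0.2. Further scaling and the gene annotation are not given in the sources used here, and depth is unknown. Whether the 4 samples of a group are separate mice is stated in the methods for individual groups but not per sample, so p-values measure the spread between these samples. The study's own DEG calls came from Cuffdiff and were not used.

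Values were analysed here as log2(FPKM + 1) with limma 3.58.1 in R 4.3.3, as 1 linear model with 4 group means and moderated variances that follow the mean level. Adjustment was by Benjamini-Hochberg over the 15988 genes whose mean FPKM exceeded 1 in some group. Differences are on the log2(FPKM + 1) scale, which understates the change of low genes, and ratios are of mean FPKM. Positions and lengths are from GENCODE M21 (22557 genes found by symbol, 969 by an older name). The gene lists and the comparison were chosen with earlier results of these data known, and no list was tested as a set. Among 40 lists, the mitochondrially encoded genes had 0 of 13 members in the table. Genes named are Esr1, Svs4 and Ltf, the 12 largest rises and 12 largest falls among DEGs that reached a mean FPKM of 5 in either group without overlap, the DEGs of each list described (with its most expressed members where it had fewer than 3) and DEGs within 10 Mb of Esr1; others are members of those lists given for their role, or were chosen after their values were seen. The steps were tested on simulated data of 14612 genes, where 97% of 200 changed genes were called with the right sign and 2.51% of calls were false. The changes put in were all larger than the 1.5-fold criterion, in genes above an FPKM of 5. Noise was independent between samples, with no trend with length. These rates therefore do not measure how well smaller changes or lower genes were called, nor the share of false calls in the real data. Figures were drawn with matplotlib 3.10.9.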

Additional observations from a re-analysis of the deposited data

Results flagged for a closer look

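In groups of 4, a sample was looked at again where its gap to the nearest other sample was too large a part of the group's range by Dixon's 95% critical value. Of 134 groups of list levels and named genes tested, 5 did so, where chance gives about 6.7. The mean level of androgen-responsive genes in αERKO-DES was 5.66 in sample 4 and 5.60 to 5.61 in the others. The mean level of Schwann cell genes in WT-veh was 3.63 in sample 4 and 3.08 to 3.16 in the others. In WT-veh, the mean level of the genes for folding and transport in the endoplasmic reticulum was 7.34 in sample 1 and 7.43 to 7.44 in the others. In WT-veh sample 2, the mean level of ribosomal protein genes was 6.24 (6.41 to 6.43 in the others) and that of lysine deacetylases was 4.24 (4.34 to 4.35 in the others). All levels are in log2(FPKM + 1).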

How the results depend on the processing

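The count of 508 DEGs became 795 in a model of the 2 groups alone, 1002 with sample weights (a fit that stopped before converging) and 156 with the adjusted p held to 0.01, and leaving out 1 sample of the 2 groups at a time gave 199 to 883, with 206 without αERKO-DES sample 4 and 259 without WT-veh sample 3. Other alternatives gave 385 to 591. The count within 1.5-fold became 17529 (77.4% of a larger table) with no minimum on FPKM, and leaving out samples gave 9259 to 10292. With 0.1 added to FPKM in place of 1 the count was 9005 (62.6%), the lowest of the alternatives except for the minimum of 5, which tested fewer genes. Leaving out samples gave 8326 to 8644 DEGs between αERKO-DES and WT-DES, and differences in distance between αERKO-DES and αERKO-veh of -0.0652 to -0.0267, none past the threshold. With the correction for length this difference in distance was -0.00978 (exact two-sided permutation p = 0.686). The same sample numbers did not pair WT-veh with αERKO-DES (correlations of deviations -0.10, -0.10, 0.07 and -0.22), and with a replicate block 394 genes were called. Among the named genes, 502 of 540 alternative values kept direction and call, 38 lost the call (Cidec, Cox8b, Cyp2e1, Hp, Ptgds and Thrsp) and 0 changed sign. Leaving out 1 sample at a time, the genes called were 1 to 5 of the complement list and of the branching signals, 0 to 4 of the prostate and Schwann cell lists, 1 to 4 chemokines, 3 to 7 matrix genes, 5 to 9 adipose genes, 0 to 3 lysine demethylases and red blood cell genes, 1 to 3 leukocyte genes and genes of the secretory pathway, 0 to 2 endothelial and xenobiotic genes, 1 to 2 lysine methyltransferases, steroid receptors and enzymes and fibroblast genes, and 2 to 3 genes of mucosal defence. Lists with 0 calls gained up to 3 (ribosomal proteins). Of 722 list medians 18 moved by more than 1 SD between samples. The causes were not tested. Depth, which FPKM does not give, limits the low values most.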

Other observations

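These genes were chosen after their values were seen, and all are DEGs of αERKO-DES relative to WT-veh. No list of transporters or mast cell genes was counted. Trpv6, a calcium channel, was 79.5 to 127 in WT-veh against 146 to 202 in αERKO-DES (limma adjusted p = 0.0115). Slc44a4, a choline transporter, was 48.4 to 55.5 in WT-veh against 101 to 140 in αERKO-DES (adjusted p = 0.000619). Slc26a3, an anion exchanger, was 15.4 to 26.5 in WT-veh against 32.9 to 43.0 in αERKO-DES (adjusted p = 0.0172). In WT-DES all 3 were lower than in WT-veh, with log2 differences of -3.16 for Trpv6, -2.04 for Slc44a4 and -3.59 for Slc26a3. Ero1lb, an oxidase that drives disulphide formation in the endoplasmic reticulum, was 43.5 to 57.3 in WT-veh against 94.3 to 145 in αERKO-DES (adjusted p = 0.000475), and Eppin, a secreted protease inhibitor of seminal plasma, was 3.61 to 5.02 in WT-veh against 9.10 to 12.4 in αERKO-DES (adjusted p = 0.0378).

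Cma1, a mast cell protease, was 1.31 to 4.47 in WT-veh against 0.26 to 1.34 in αERKO-DES and overlapped. Mcpt4 was 1.34 to 3.76 in WT-veh against 0.46 to 1.36 in αERKO-DES and overlapped too. Tpsb2 was 1.92 to 4.04 in WT-veh against 0.26 to 1.33 in αERKO-DES (adjusted p = 0.0195). The imprinted gene Meg3, a long non-coding RNA, was 27.1 to 37.7 in WT-veh against 6.54 to 15.3 in αERKO-DES (adjusted p = 0.00517), and Rian, from the same locus, was 2.63 to 4.63 in WT-veh against 1.25 to 1.95 in αERKO-DES (adjusted p = 0.0414). Both had log2 differences above 1.9 in WT-DES, 1.96 for Meg3 and 1.91 for Rian. The junction genes Tjp1 and Dsp were higher by log2 differences of 0.61 and 0.67, and their transcripts, of 7049 and 9592 bases, are longer than the median of 3260.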
